A study of Mus musculus with 6 samples.

Results

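The genes described here encode the subunits of the nuclear RNA polymerases I, II and III, the mitochondrial RNA polymerase and the proteins of RNase P. They were chosen by symbol (Polr1, Polr2, Polr3 or Polrmt at the start, or Rpp followed by digits), which gave 34 of the 19938 genes that have a probe set with 1 symbol. The set was proposed with earlier results of these data known, so its counts describe the set and are no independent evidence that it stands apart from other genes. Within the set, the mean over all 6 arrays selected 1 probe set for each gene. All 34 passed the filter on dim genes and were among the 13956 genes tested.

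Expression was measured on 6 Affymetrix arrays in bone marrow cells sorted as Kit-positive, CD11b-positive and low for lineage markers, with 1 array for each mouse. The groups were 3 MYB knockdown mice and 3 wild type mice, all of them males of the C57BL6 strain aged 4 weeks. Myb is a transcription factor of blood progenitors. How its expression was lowered is not given in the labels. Values are log2 intensities of a probe set, so they show differences between mice for 1 gene and not levels between genes.

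RNA polymerase I makes the large ribosomal RNA precursor in the nucleolus, polymerase II makes messenger RNA, and polymerase III makes transfer RNA, 5S ribosomal RNA and other short RNAs. Each enzyme has its own catalytic core, and a set of small subunits is shared between them. RNase P trims the 5′ end of precursor transfer RNA, and the related RNase MRP, which has most of the same proteins, processes precursor ribosomal RNA. Growing progenitor cells need these enzymes for making ribosomes and transfer RNA.

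Of the 34 genes, 11 rose in MYB knockdown mice, or 32.4%, and 0 fell. Across all genes tested 6.12% rose and 5.48% fell, so that rises were 52.7% of the calls. After median centring over all probe sets, a scaling chosen after seeing the data, rises were 70.7% of the calls over all genes. Under it 13 of the 34 rose (38.2%, against 10.3% of all genes tested). Of the 34, 15 had an unadjusted p under 0.05 in limma, and in all of these the difference was positive; over all genes tested, 15% were higher and 10.6% lower at that unadjusted p. The difference was positive for 30 of the 34, against 53.6% of all genes tested. The median difference (MYB knockdown minus wild type) was 0.257 on the log2 scale over the 34 genes and 0.0172 over all genes tested. For 17 of the 34 every knockdown array lay above every wild type array, which was so for 19.9% of all genes tested. For 0 of the 34 every knockdown array lay below, against 14.4% of all genes.

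By complex within the set, rises were found in 3 of 6 RNase P proteins and 4 of 7 subunits that are shared between polymerases. Among subunits of a single polymerase, 2 of 3 rose for polymerase I, 1 of 8 for II (12.5%) and 1 of 9 for III (11.1%). Over all genes tested 6.12% rose, and the counts for II and III rest on 1 gene each. Holoenzymes were also counted, with the shared subunits in each. Of their members in the set, 6 of 10 rose for polymerase I, 4 of 13 for II and 5 of 16 for III. The median differences of these members were 0.393, 0.234 and 0.201, against 0.0172 over all genes tested. The counts for polymerase I leave out Twistnb, Cd3eap and Znrd1, further subunits of it that were measured under other symbols. Of these 3, 0 passed the test, with differences of 0.34, 0.004 and 0.07. With them counted, the share of polymerase I subunits that rose would be lower. The holoenzyme groups overlap, and the differences between complexes were not tested.

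**Figure D1:**
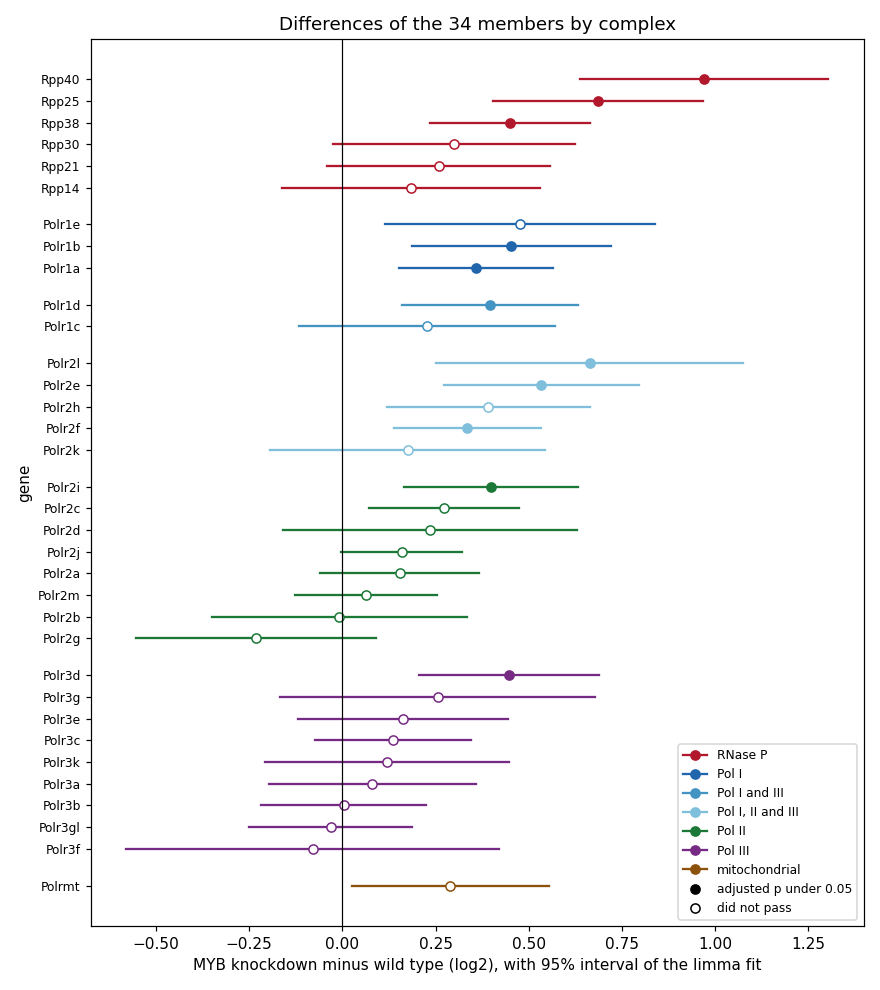
Difference between MYB knockdown and wild type mice (log2, horizontal axis) with its 95% interval from the limma fit, for each of the 34 genes, coloured by complex; filled circles passed the test at an adjusted p under 0.05 and open circles did not. All 11 filled circles lie to the right of 0, from Polr2f at 0.34 to Rpp40 at 0.97.

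The number of rises depended on single arrays. Without knockdown mouse 3, 21 of the 34 rose (61.8%), where 17.2% of all genes tested did. Without knockdown mouse 2 the count was 2 (5.88%, against 3.09% of all genes), and without knockdown mouse 1 it was 8 (23.5%, against 5.57%). Without wild type mouse 1, 2 or 3 the counts were 1, 2 and 1 (2.94%, 5.88% and 2.94%, against 2.12%, 2.19% and 2.54% of all genes). A fit without 1 array has fewer mice. The number of positive differences stayed between 29 and 32 of the 34 in all 6 of these fits, and 0 members fell in any of them.

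Several measures of the arrays moved with the groups. The median over all probe sets was 5.873, 5.904 and 5.887 in knockdown mice and 5.936, 5.992 and 5.96 in wild type mice. Every knockdown median was thus below every wild type median, and median centring over all probe sets makes them equal. Knockdown mouse 3 stood apart from the other knockdown arrays, with correlations over all probe sets of 0.977 and 0.984, while those 2 correlated at 0.994 and the wild type arrays at 0.993 to 0.995. Myb itself was 11.26, 11.08 and 11.14 in knockdown mice and 11.47, 11.46 and 11.46 in wild type mice, a fall by 0.30 ± 0.06 (SE; adjusted p = 0.0196); without knockdown mouse 2 or wild type mouse 1, 2 or 3 its adjusted p was 0.0777 to 0.0963. Both genes of the sort were bright, Kit at 10.21 to 10.23 in knockdown and 10.38 to 10.58 in wild type mice, and Itgam (CD11b) at 9.07 to 9.85 in knockdown and 9.81 to 9.90 in wild type mice. Of 10 genes of neutrophil granules 8 fell, with a median shift of -1.51 to -1.09 in knockdown arrays against -0.01 to 0.03 in wild type arrays. Falls were found in 2 of 3 eosinophil, 4 of 4 basophil and mast cell, 2 of 5 monocyte and 2 of 4 B lymphoid genes. Of 3 T and NK cell genes 1 rose and 1 fell. Over all genes tested 5.48% fell and 6.12% rose. The monocyte list was mixed, with a positive difference in 2 of its 5 genes and a median of -0.128. All 4 measured megakaryocyte genes and all 4 stem cell genes rose, with median shifts of 1.27 to 1.69 and of 0.85 to 1.01 in the knockdown arrays. Of 4 erythroid genes 0 passed the test in limma, 0 also at an unadjusted p under 0.05, and their median shift was 0.13, -0.29 and 0.79 in knockdown mice 1, 2 and 3. In bulk samples a change in the mix of cells and a change of RNA within a cell cannot be told apart, and the part of these marker shifts in the polymerase results was not tested.

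Of the 6 RNase P proteins 3 rose (50%, against 6.12% of all genes tested), among them Rpp40 with the largest difference of the 34. Rpp40, a protein of RNase P and RNase MRP, had log2 values of 7.24, 7.41 and 7.28 in knockdown mice, against 6.48, 6.02 and 6.51 in wild type mice. The groups did not overlap, and wild type mouse 2 was the lowest of all. Rpp40 rose by 0.97 ± 0.15 (SE, n = 3 mice each), or 1.96-fold, with an adjusted p of 0.00402. Its rise passed the test in all 6 fits that left out an array, with adjusted p between 0.00147 and 0.0214.

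Rpp25, which pairs with Rpp20 on the RNA of RNase MRP, stood at 5.79, 5.99 and 6.23 in knockdown mice and at 5.28, 5.40 and 5.27 in wild type mice. Its wild type values lay below the medians of their arrays (5.94 to 5.99), so its probe set was dim and its fold is uncertain. Rpp25 rose by 0.69 ± 0.12, or 1.61-fold (adjusted p = 0.00944). Without wild type mouse 1 or 3 the adjusted p was 0.0564 and 0.0515. Its close relative Rpp25l, which is outside the 34, was 7.24, 7.28 and 7.73 in knockdown mice and 7.11, 7.08 and 7.12 in wild type mice. The groups did not overlap, and the difference of 0.31 ± 0.14 did not pass the test (adjusted p = 0.219).

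Rpp38, a protein that binds the RNA of both enzymes, was 10.15, 10.25 and 10.06 in knockdown mice, against 9.74, 9.57 and 9.79 in wild type mice. All 3 knockdown values were higher, and Rpp38 rose by 0.45 ± 0.09, or 1.37-fold (adjusted p = 0.0187). The rise passed when knockdown mouse 1 (0.0413) or 3 (0.00162) was left out, and had an adjusted p of 0.0543 to 0.0943 when any other array was. The other 3 RNase P proteins did not pass the test. Rpp30 differed by 0.30 ± 0.14 (adjusted p = 0.235), Rpp21 by 0.26 ± 0.13 (0.267) and Rpp14 by 0.18 ± 0.15 (0.521). Both Rpp30 and Rpp14 were higher in knockdown mice 1 and 2 than in any wild type mouse, while in knockdown mouse 3 Rpp30 lay among the wild type values and Rpp14 below them.

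Other parts of the same enzymes come from a list of 8 partners, of which 3 rose (37.5%, against 6.12% of all genes tested) and 0 fell. The median difference of the list was 0.384, against 0.0172 over all genes tested. Pop5, a small protein of RNase P and MRP, was 7.63, 7.50 and 7.46 in knockdown and 6.96, 7.06 and 7.11 in wild type mice, and rose by 0.49 ± 0.10 (adjusted p = 0.0181). Pop7 (Rpp20), the partner of Rpp25, was 7.53, 7.62 and 7.97 in knockdown and 7.20, 7.14 and 7.22 in wild type mice, and rose by 0.52 ± 0.13 (adjusted p = 0.0397). Nepro rose by 0.48 ± 0.11 (adjusted p = 0.0245), and Pop4 differed by 0.33 ± 0.13 (0.166). Each of the 3 rises passed in 2 of the 6 fits without an array, with adjusted p of up to 0.105, 0.161 and 0.117 for Pop5, Pop7 and Nepro. The RNA components did not pass the test. Rpph1, the RNA of RNase P, was 11.88, 12.21 and 12.58 in knockdown and 12.37, 12.55 and 12.09 in wild type mice. Rmrp, the RNA of RNase MRP, was 10.07, 10.59 and 10.81 in knockdown and 10.14, 10.57 and 9.56 in wild type mice. The groups overlapped for both RNAs, with differences of -0.11 ± 0.17 (adjusted p = 0.758) and 0.40 ± 0.26 (adjusted p = 0.406).

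Promoter sequences were available from RefSeq (GRCm38.p6) for 28 of the 34 genes, and 250 bases before each start were searched on both strands for the letters of 4 motifs. The E-box bound by MYC and MAX, CACGTG, was in 2 of the 28 (7.14%), against 9.59% of 11096 genes tested that have a promoter sequence. A common form of the MYB site, searched as the hexamer TAACGG, its variant with the letters TAACTG, or with a leading C either CAACGG or else the form CAACTG, was in 5 of the 28 (17.9%), against 24.2%. The last of these also fits the general E-box form. The ETS core CCGGAAG was in 6 of the 28 (21.4%, against 13.9%) and the NRF1 letters GCATGCGC in 3 (10.7%, against 4.52%). Of 10 genes that rose and have a promoter sequence, 0 held the E-box, 1 a MYB hexamer, 1 the ETS core and 0 the NRF1 letters. These counts are a description of the letters in this window only.

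The sequences shown are those of the 3 RNase P genes that rose, and of Polr2f, Polr3c and Polr3gl. Of the 10 genes that rose and have a promoter sequence, Polr2f alone held a MYB hexamer. Polr3c and Polr3gl held the E-box and did not pass the test. Each sequence runs 5′ to 3′ on the strand of its gene and ends at the base before the start. Capitals in the sequences mark a motif match. They lie at chr13:35906348-35906597 on the minus strand (Rpp40), chr9:57503852-57504101 on the plus strand (Rpp25), chr2:3332629-3332878 on the minus strand (Rpp38), chr15:79141075-79141324 on the plus strand (Polr2f), chr3:96727440-96727689 on the minus strand (Polr3c) and chr3:96594182-96594431 on the minus strand (Polr3gl).
Rpp40: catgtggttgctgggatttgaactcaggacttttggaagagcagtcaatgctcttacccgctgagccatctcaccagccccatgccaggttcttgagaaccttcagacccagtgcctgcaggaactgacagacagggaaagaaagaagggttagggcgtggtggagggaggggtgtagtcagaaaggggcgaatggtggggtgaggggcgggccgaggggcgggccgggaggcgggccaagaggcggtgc
Rpp25: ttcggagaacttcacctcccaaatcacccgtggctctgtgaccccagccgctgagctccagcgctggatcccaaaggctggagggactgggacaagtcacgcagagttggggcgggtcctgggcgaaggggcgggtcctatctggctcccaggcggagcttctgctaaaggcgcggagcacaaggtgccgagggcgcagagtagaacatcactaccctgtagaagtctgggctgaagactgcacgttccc
Rpp38: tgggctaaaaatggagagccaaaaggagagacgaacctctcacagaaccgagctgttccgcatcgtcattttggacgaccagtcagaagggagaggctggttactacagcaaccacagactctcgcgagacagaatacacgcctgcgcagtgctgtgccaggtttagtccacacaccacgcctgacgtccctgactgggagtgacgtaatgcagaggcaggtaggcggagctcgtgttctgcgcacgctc
Polr2f: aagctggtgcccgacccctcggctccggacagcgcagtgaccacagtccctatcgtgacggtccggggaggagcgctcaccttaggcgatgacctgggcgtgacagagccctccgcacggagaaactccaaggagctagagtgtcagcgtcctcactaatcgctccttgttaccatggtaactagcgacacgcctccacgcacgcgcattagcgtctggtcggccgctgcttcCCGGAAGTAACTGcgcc
Polr3c: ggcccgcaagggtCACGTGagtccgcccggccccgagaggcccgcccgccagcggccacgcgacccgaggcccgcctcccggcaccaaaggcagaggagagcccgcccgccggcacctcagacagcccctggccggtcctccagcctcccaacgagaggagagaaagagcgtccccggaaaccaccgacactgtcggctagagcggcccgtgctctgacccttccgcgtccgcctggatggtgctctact
Polr3gl: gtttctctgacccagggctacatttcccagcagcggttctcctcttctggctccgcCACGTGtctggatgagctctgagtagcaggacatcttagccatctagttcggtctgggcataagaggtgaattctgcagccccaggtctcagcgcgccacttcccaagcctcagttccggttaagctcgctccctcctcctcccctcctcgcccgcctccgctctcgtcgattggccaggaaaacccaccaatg
No capitals appear in the windows of Rpp40, Rpp25 and Rpp38. In Polr2f the ETS core and the hexamer TAACTG stand side by side, from 17 to 11 and from 10 to 5 bases before the start. The E-box lies 237 to 232 bases before the start of Polr3c and 194 to 189 before that of Polr3gl.

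Subunits of polymerase I alone were represented in the set by its catalytic pair and Polr1e. Polr1a, the largest subunit of polymerase I, was 9.28, 9.38 and 9.25 in knockdown mice and 8.88, 8.99 and 8.97 in wild type mice. Polr1b, the second largest, was 10.02, 10.20 and 10.39 in knockdown mice and 9.60, 9.77 and 9.88 in wild type mice. The groups did not overlap for either, and Polr1a rose by 0.36 ± 0.09 (1.28-fold, adjusted p = 0.0383) and Polr1b by 0.45 ± 0.12 (1.37-fold, adjusted p = 0.0417).

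Polr1e, the PAF53 subunit, was 8.80, 8.91 and 8.29 in knockdown mice and 8.18, 8.21 and 8.18 in wild type mice. Its knockdown values were all higher, but knockdown mouse 3 lay near the wild type mice, and the difference of 0.48 ± 0.16 did not pass the test (adjusted p = 0.0954). Without knockdown mouse 3 it was 0.66 with an adjusted p of 0.00019. The rise of Polr1a passed only without knockdown mouse 3 (0.00304) among the fits that left out an array, with 0.0687 to 0.177 in the others. That of Polr1b passed without knockdown mouse 1 (0.0249) or 3 (0.0162), with 0.0809 to 0.177 in the others.

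Other genes of polymerase I were read from 2 lists. The array's symbols Twistnb, Cd3eap and Znrd1 stand for further subunits of this enzyme, and 0 of the 3 passed the test in limma, where 1 had an unadjusted p under 0.05. Twistnb was 8.65, 8.54 and 8.51 in knockdown and 8.33, 8.04 and 8.30 in wild type mice (0.34 ± 0.11, adjusted p = 0.0916), while Znrd1 and Cd3eap differed by 0.07 ± 0.13 and 0.00 ± 0.10. Of 8 initiation and termination factors of polymerase I 0 passed, where 6.12% of all genes tested rose and 5.48% fell. In limma 1 of the 8 had an unadjusted p under 0.05. Ubtf, which binds the ribosomal DNA, differed by 0.20 ± 0.08 (adjusted p = 0.146), Rrn3 (TIF-IA), which recruits polymerase I, by 0.22 ± 0.13 (0.338), Tbp, the TATA-binding protein, by 0.18 ± 0.09 (0.3) and Ttf1, a termination factor, by -0.21 ± 0.10 (0.235). Without knockdown mouse 3, Twistnb, Ubtf and Rrn3 passed with adjusted p of 0.0202, 0.0286 and 0.00294. That fit had 1 rise among the 3 subunits and 2 among the 8 factors, where 17.2% of all genes tested rose. In the fits without any other array these genes did not pass, with adjusted p of up to 0.333, 0.42 and 0.651.

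Subunits shared between enzymes rose in 4 of 7 cases (57.1%, against 6.12% of all genes tested). Polr2l (RPB10), a small subunit common to all 3 nuclear polymerases, was 10.26, 10.45 and 11.04 in knockdown mice, against 9.85, 9.93 and 9.98 in wild type mice. Knockdown mouse 3 was the highest array by a wide margin. Polr2l rose by 0.66 ± 0.18, or 1.58-fold (adjusted p = 0.0492), and a second probe set of the gene gave a difference of 0.655.

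Polr2e (RPB5) was 9.17, 9.30 and 9.53 in knockdown mice, against 8.74, 8.77 and 8.88 in wild type mice, and rose by 0.53 ± 0.11, or 1.45-fold (adjusted p = 0.0203). Polr2f (RPB6) was 10.98, 11.09 and 11.06 in knockdown mice, against 10.80, 10.54 and 10.78 in wild type mice, and rose by 0.34 ± 0.09 (adjusted p = 0.0408). Polr1d, which polymerases I and III share, was 8.90, 8.82 and 9.05 in knockdown mice, against 8.57, 8.44 and 8.57 in wild type mice, and rose by 0.40 ± 0.10 (adjusted p = 0.0431). No knockdown array overlapped the wild type arrays in any of these 4 genes. A second, dimmer probe set of Polr1d differed by 0.152, less than its first, and with the mean of both the gene did not pass (0.273, adjusted p = 0.103), which left 3 shared subunits that rose. Polr1d, Polr2c, Polr2h, Polr2l and Polr3e have a second probe set each, and whether any of these probe sets reads processed copies of its gene was not tested.

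Each of these 4 calls was lost without some arrays. Polr2l and Polr2e passed without knockdown mouse 1 (0.0175 and 0.0161) or 3 (0.00263 and 0.0025), with 0.0886 to 0.177 and 0.0638 to 0.107 in the other fits. Polr2f and Polr1d passed only without knockdown mouse 3 (0.0178 and 0.00916), with 0.0521 to 0.142 and 0.0751 to 0.191 in the others. The other 3 shared subunits did not pass. Polr2h (RPB8) differed by 0.39 ± 0.12 (adjusted p = 0.073) with every knockdown array higher, and its second probe set by 0.137. Polr1c, the partner of Polr1d, differed by 0.23 ± 0.15 (0.409) and Polr2k by 0.18 ± 0.16 (0.577).

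**Figure D2:**
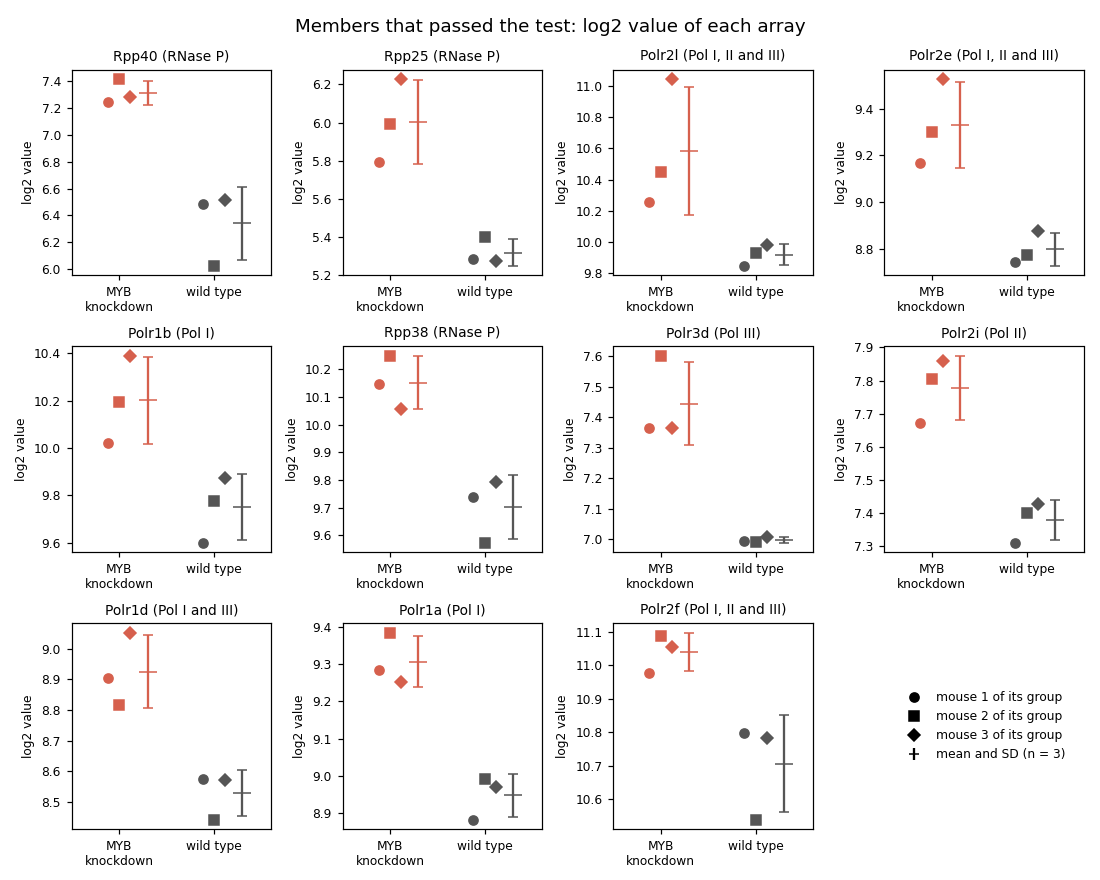
Log2 value of each array for the 11 genes that passed the test, with MYB knockdown mice on the left and wild type mice on the right of each panel, and the mean and SD beside them (n = 3 mice each); each panel has its own vertical scale. In every panel the lowest knockdown array lies above the highest wild type array, as for Rpp40 with 7.24 against 6.51.

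Polymerase II had 1 rise among the 8 subunits of its own (12.5%, against 6.12% of all genes tested). Polr2i (RPB9), a small subunit that takes part in proofreading, was 7.67, 7.80 and 7.86 in knockdown mice, against 7.31, 7.40 and 7.43 in wild type mice. No array overlapped between the groups, and Polr2i rose by 0.40 ± 0.10, or 1.32-fold (adjusted p = 0.0403); it also passed without knockdown mouse 1 (0.0391) or 3 (0.012), and had 0.129 to 0.18 without any other array. The catalytic subunits overlapped between the groups. Polr2a, the largest subunit with the C-terminal repeat domain, was 10.44, 10.43 and 10.59 in knockdown mice and 10.23, 10.49 and 10.27 in wild type mice, a difference of 0.15 (95% interval -0.06 to 0.37, adjusted p = 0.362). Polr2b, the second largest, was 9.95, 9.95 and 9.39 in knockdown mice and 9.78, 9.78 and 9.75 in wild type mice, a difference of -0.01 (95% interval -0.35 to 0.33, adjusted p = 0.986). Without knockdown mouse 3, Polr2b was higher by 0.18 (adjusted p = 0.0357).

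The remaining subunits of polymerase II did not pass on all arrays. Polr2c (RPB3) differed by 0.27 ± 0.09 (adjusted p = 0.0882) with every knockdown array higher, but its second probe set gave 0.124. Polr2j (RPB11) differed by 0.16 ± 0.07 (0.205), again with every knockdown array higher. Polr2d (RPB4) differed by 0.23 ± 0.17 (0.467), and Polr2m, known as Gdown1, by 0.06 ± 0.08 (0.717). Polr2g (RPB7), which forms a stalk with RPB4, had the lowest difference of the 34 at -0.23 ± 0.14 (0.362). Of 17 general initiation factors of polymerase II 0 passed in limma, where 6.12% of all genes tested rose and 5.48% fell. At an unadjusted p under 0.05, 4 of the 17 were higher, against 15% of all genes tested. The median of the list was 0.113. Those of smallest p belong to TFIIH: Gtf2h5 (0.31 ± 0.09, adjusted p = 0.0629), Gtf2h4 (0.36 ± 0.11, 0.076), Ercc2 (0.28 ± 0.10, 0.124) and Gtf2h3 (0.34 ± 0.14, 0.158). The other TFIIH genes of the list, named after their values were seen, had smaller differences of both signs. Gtf2h1 differed by -0.12, Ccnh by -0.08, Ercc3 by 0.02, Cdk7 by 0.11 and Mnat1 by 0.18 (adjusted p of 0.354 to 0.929 in limma). Without knockdown mouse 3, 5 of the 17 rose, where 17.2% of all genes tested did.

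Polymerase III had 1 rise among the 9 subunits of its own (11.1%, against 6.12% of all genes tested). Polr3d (RPC4) was 7.37, 7.60 and 7.37 in knockdown mice, against 6.99, 6.99 and 7.01 in wild type mice, and rose by 0.45 ± 0.11, or 1.36-fold (adjusted p = 0.0307). The wild type mice lay very close together. The rise passed without knockdown mouse 1 (0.0379) or 3 (0.00469), and had 0.114 to 0.13 without any other array. Polr3a, the largest catalytic subunit, was 8.48, 8.54 and 8.18 in knockdown mice and 8.23, 8.36 and 8.36 in wild type mice, a difference of 0.08 (95% interval -0.20 to 0.36, adjusted p = 0.758). Polr3b, its catalytic partner, was 9.29, 9.27 and 9.06 in knockdown mice and 9.18, 9.24 and 9.19 in wild type mice, a difference of 0.00 (95% interval -0.22 to 0.22, adjusted p = 0.99). For both, knockdown mouse 3 was the lowest array.

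Polr3g and Polr3gl are alternative subunits of polymerase III, and Polr3g is known from embryonic stem cells and dividing cells. Polr3g was 7.58, 7.35 and 6.85 in knockdown mice and 7.13, 6.83 and 7.05 in wild type mice. Knockdown mice 1 and 2 were above all wild type mice, and the difference of 0.26 ± 0.18 did not pass (adjusted p = 0.458), although it did without knockdown mouse 3 (0.46, adjusted p = 0.0165). Polr3gl was 7.43, 7.42 and 7.40 in knockdown mice and 7.49, 7.36 and 7.48 in wild type mice, a difference of -0.03 (95% interval -0.25 to 0.19, adjusted p = 0.895). The difference between the effects on both genes was not tested.

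The other subunits of polymerase III did not pass on all arrays. Polr3e (RPC5) differed by 0.16 ± 0.12 (adjusted p = 0.478) and a second, dimmer probe set of it by 0.214. Polr3c (RPC3) differed by 0.14 ± 0.09 (0.419), Polr3k by 0.12 ± 0.14 (0.685) and Polr3f (RPC6) by -0.08 ± 0.22 (0.883). Of 16 factors of polymerase III, which are initiation factors and the repressor Maf1, 2 rose (12.5%, against 6.12% of all genes tested). Gtf3c5, a DNA-binding subunit of TFIIIC, was 7.83, 7.79 and 7.89 in knockdown and 7.23, 7.10 and 7.31 in wild type mice, and rose by 0.62 ± 0.10 (adjusted p = 0.00623, and 0.00126 to 0.0459 with each array left out). Gtf3a (TFIIIA), which binds the 5S gene, was 9.22, 9.33 and 9.21 in knockdown and 8.93, 8.80 and 8.95 in wild type mice, and rose by 0.35 ± 0.09 (adjusted p = 0.0438); it passed only without knockdown mouse 3 (0.00509) among the fits without an array. Snapc2 differed by 0.49 ± 0.21 (0.193) and Gtf3c6 by 0.22 ± 0.11 (0.261). Maf1, the repressor of polymerase III, differed by 0.01 ± 0.09 (0.963; named after its values were seen).

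Polrmt, the RNA polymerase of mitochondria, was 8.23, 8.40 and 8.59 in knockdown mice and 8.07, 8.12 and 8.15 in wild type mice. All knockdown arrays were higher, and the difference of 0.29 ± 0.12 did not pass (adjusted p = 0.158). Of 10 other mitochondrial genes, of transcription, RNase P and DNA replication, 0 rose and 1 fell, against 6.12% and 5.48% of all genes tested. The fall was that of Polg, the catalytic subunit of the mitochondrial DNA polymerase, which was 7.76, 7.66 and 7.64 in knockdown and 8.15, 8.30 and 8.16 in wild type mice and fell by 0.52 ± 0.10 (adjusted p = 0.0136, and up to 0.0855 with an array left out). The elongation factor Tefm differed by 0.34 ± 0.13 (0.133), the helicase Twnk by 0.24 ± 0.13 (0.317) and Trmt10c, a protein of mitochondrial RNase P, by 0.14 ± 0.12 (0.507).

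Factors that assemble the polymerases or regulate their genes were read from 2 further lists. Of 11 assembly factors 2 rose (18.2%), against 6.12% of all genes tested. All 11 differences were positive, against 53.6% of all genes tested, and the median was 0.242, against 0.0172. Gpn2, a GTPase of polymerase assembly, was 8.55, 8.56 and 8.95 in knockdown and 8.14, 7.94 and 8.20 in wild type mice and rose by 0.60 ± 0.14 (adjusted p = 0.0281). Urb1 rose by 0.41 ± 0.11 (0.0451), while Rpap1 differed by 0.37 ± 0.11 (0.0616) and Ruvbl2 by 0.30 ± 0.09 (0.0739). With each array left out the adjusted p of Gpn2 was up to 0.134 and that of Urb1 up to 0.199. Urb1, 1 of the 2 rises counted in this list, is better known as a factor of ribosome assembly in yeast.

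MYC is known to drive genes of all 3 nuclear polymerases, and its network also holds antagonists of MYC. Whether these genes had a part in the polymerase results was not tested. Of 8 genes of the network 2 fell and 0 rose, against 5.48% and 6.12% of all genes tested. The falls were those of Mxi1 and Mxd1, which are antagonists of MYC. Mxi1 was 7.84, 7.69 and 7.74 in knockdown and 8.27, 8.19 and 8.04 in wild type mice and fell by 0.41 ± 0.11 (adjusted p = 0.0426), and Mxd1 was 8.64, 8.36 and 8.10 in knockdown and 8.84, 8.94 and 8.88 in wild type mice and fell by 0.52 ± 0.14 (adjusted p = 0.0483). Myc was 11.42, 11.48 and 11.57 in knockdown and 11.19, 11.23 and 11.33 in wild type mice, with every knockdown array higher and a difference of 0.24 ± 0.07 (adjusted p = 0.0586). Mycn differed by 0.37 ± 0.12 (0.0885). The other antagonists in the list, named after their values were seen, did not pass and had opposite signs. Mxd4 differed by -0.34 ± 0.11 (0.0992). Mnt differed by 0.34 ± 0.21 (0.374), with 7.16, 7.28 and 8.03 in knockdown mice and 7.08, 7.20 and 7.17 in wild type mice. With an array left out the adjusted p of Mxi1 and Mxd1 was up to 0.193 and 0.184. After that median centring over all probe sets Mxi1 and Mxd1 did not pass (0.0814 and 0.0726), and Myc and Mycn did (0.0239 and 0.0424).

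Knockdown mouse 3 divided the 34 genes. Against the mean of knockdown mice 1 and 2, 14 of the 34 (41.2%) were lower in mouse 3 by more than 0.2 and 6 (17.6%) were higher by more than 0.2, where 30.7% and 29.4% of all genes tested were. In knockdown mice 1 and 2 the median shift of the 34 from the wild type mean was 0.325 and 0.342, and in mouse 3 it was 0.145. For the 9 subunits of polymerase III alone the median shift was 0.22 and 0.219 in mice 1 and 2 and -0.139 in mouse 3. RNase P proteins went both ways in mouse 3. The difference of mouse 3 from the mean of mice 1 and 2 was -0.508 for Rpp14 and -0.464 for Rpp30, but 0.341 for Rpp21 and 0.337 for Rpp25, so that their median shifts of 0.424, 0.526 and 0.421 in mice 1, 2 and 3 cover members of opposite direction.

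Polr3f was the gene with the largest drop in knockdown mouse 3, at 8.11, 7.98 and 7.24 in knockdown mice against 8.05, 7.70 and 7.81 in wild type mice. Polr2l was at the other end, 0.69 higher in mouse 3 than in the mean of mice 1 and 2. Rpp21, Rpp25, Polr2e, Polr1b and Polrmt were also higher in mouse 3, by 0.341, 0.337, 0.296, 0.28 and 0.274. Without knockdown mouse 3, 10 genes rose that had not passed on all arrays: Polr1e, Polr1c (adjusted p = 0.00188), Polr2h (0.00504), Polr2b, Polr2c (0.0031), Polr2d (0.0132), Polr3g, Polr3k (0.0141), Rpp14 (0.0078) and Rpp30 (0.00276). All 11 genes that rose on the 6 arrays passed in that fit as well. No label marks mouse 3 as different, and what set its array apart was not tested.

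**Figure D3:**
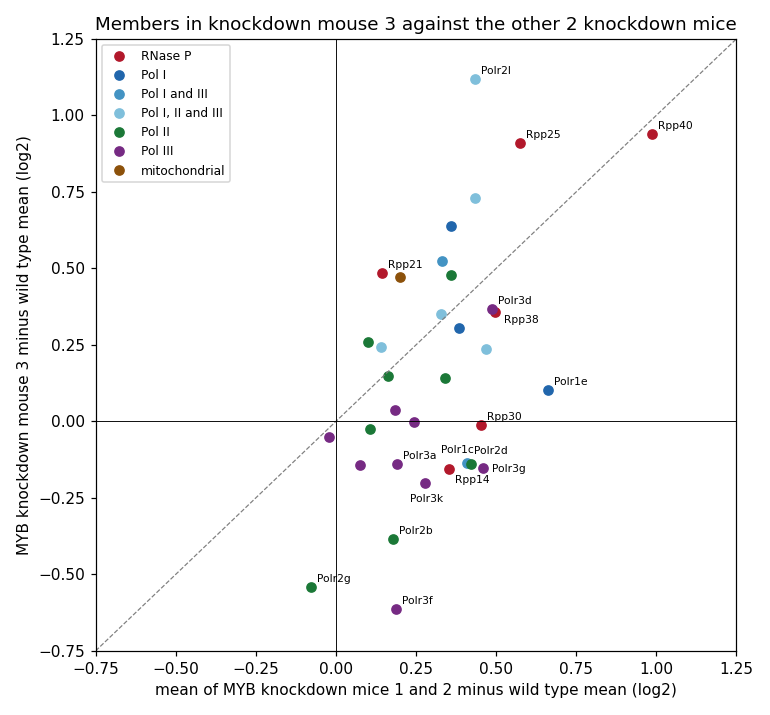
Shift of each of the 34 genes from its wild type mean (log2) in MYB knockdown mouse 3 (vertical axis) against the mean of MYB knockdown mice 1 and 2 (horizontal axis), coloured by complex, with the line of equal shifts dashed. Points below the line are lower in mouse 3, down to Polr3f, and Polr2l lies farthest above it.

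**Figure D4:**
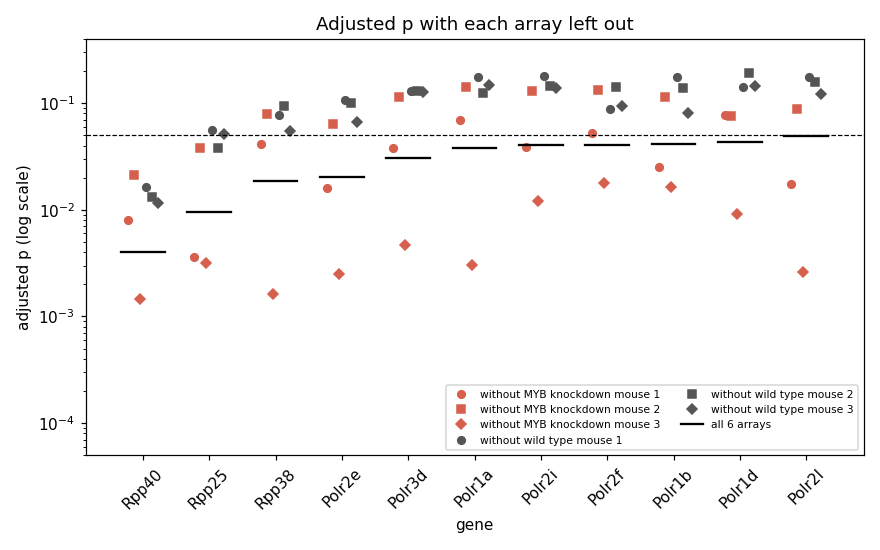
Adjusted p (log scale) of the 11 genes that passed the test on all 6 arrays (bars), and with each array left out (points); the dashed line marks 0.05. Every gene passed without MYB knockdown mouse 3, and Rpp40 alone lies below the line in all 6 fits.

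Starts of neighbouring genes were read from the RefSeq annotation. Of the 28 genes with a promoter sequence, 10 (35.7%) have a gene that starts within 1000 bases on the opposite strand and runs the other way, against 17.9% of 11096 genes tested. Of those 10, 6 rose (Polr1a, Polr1b, Polr1d, Polr2f, Polr2i and Polr2l), where 10 of all 28 did and 6.12% of all genes tested; this difference was not tested. Their neighbours did not pass the test where they were tested. Ptcd3, which starts 291 bases from Polr1a, differed by 0.10 ± 0.13 (adjusted p = 0.708). Tspan4, 83 bases from Polr2l, differed by 0.33 ± 0.09 (0.0574). Lnx2, 1700088E04Rik and Tbcb, the neighbours of Polr1d, Polr2f and Polr2i, differed by -0.0035 ± 0.12, 0.03 ± 0.15 and 0.05 ± 0.18. These neighbours were named after their values were seen.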

How the data were processed

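The authors deposited log2 signals, 1 for every probe set on each array. Affymetrix Expression Console and limma are named per the submitters' processing notes; no source used here gives their versions or the normalization. Arrays carry no read depth, so precision rests on 3 mice per group. Of 35556 probe sets, 21789 had 1 symbol in the platform annotation. The probe set of highest mean was taken for each gene, and the lowest 30% of genes were left out. All 6 arrays entered 1 limma fit (lmFit, then eBayes with an intensity trend; limma 3.58.1 under R 4.3.3) that had group as its only term. P-values were two-sided, adjusted by Benjamini-Hochberg over 13956 genes and read at 0.05. Differences are MYB knockdown minus wild type with the SE of the fit. "Rose" and "fell" mean an adjusted p under that threshold. Lists were described by counts and medians, with no test. The members and lists were chosen with earlier results of these data known. Each of the 34 genes is named. Array values are given for those that passed, the largest difference of each complex, the catalytic subunits and the alternative subunits, and from each pathway list up to 4 genes of smallest p are named (Tbp counts in 3 lists). The same fit was tested on simulated data. The alternatives were other scalings, filters, probe set rules and spread models, array weights, other thresholds, the replicate number as a block, and each array left out.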

Additional observations from a re-analysis of the deposited data

How the results depend on the processing

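Of the 34 genes 29 to 32 were positive and 0 fell under each alternative run, except that the filter at 50% left out Polr2k and Rpp25, and 28 of the remaining 32 were positive. The replicate numbers name different mice. The deviations of same-numbered mice from their group means correlated at 0.293, -0.188 and -0.0827 for numbers 1, 2 and 3, without a common sign. With the replicate block 6 of the 34 rose (17.6%, against 5.35% of all genes). Among them were 1 of polymerase I alone, 2 shared, 0 of II and 0 of III. With no filter 6 rose (17.6%, against 3.8% of all genes), with 1 of I, 1 shared and 0 of II. With array weights, whose estimation stopped before it converged, 23 of the 34 rose (67.6%, against 16.8% of all genes). Of these, 4 were of II, 4 of III and 5 of RNase P. The median difference of the RNA polymerase and RNase P genes was then 0.306, and 2351 genes rose and 1561 fell. A minimum of 1.5-fold left 3 of the 34 (8.82%, against 2.92% of all genes), with 0 of I, 1 shared, 0 of II and 0 of III. It left 407 rises and 508 falls, and not Myb (-0.303). At an adjusted p of 0.1, 1374 genes rose and 2 of II. Of polymerase I alone 1 rose after quantile normalization, median centring or eBayes without the trend, and 2 shared subunits after the last 2 of these. Counted by the number in the symbol, 4 Polr2 genes rose. Myb had an adjusted p of 0.0662 without the trend (-0.303). Median centring over all probe sets was chosen after seeing the data: 1433 genes rose and 593 fell (70.7% of calls were rises, against 52.7%), 2 of II rose, and the median was 0.332 where that of all genes was 0.0922. Myb was then -0.228 (adjusted p = 0.074). With 1 array left out the rises of all genes were 296 to 2397 and the falls 367 to 1397; of the 34 genes 1 to 21 rose, with 0 to 3 of I, 0 to 6 shared, 0 to 4 of II, 0 to 3 of III and 1 to 5 of RNase P. The median was 0.209 to 0.335 and Myb -0.353 to -0.264. Genes near 0 changed sign: Polr2b was 0.156 with array weights, 0.0666 after centring over all probe sets and -0.104 to 0.179 with an array left out, Polr3b -0.018 and -0.00309 after quantile normalization and median centring and -0.038 to 0.0755 with an array left out, Polr3f 0.136 with array weights and -0.243 to 0.187, Polr3gl 0.0432 after centring over all probe sets, Cd3eap -0.00192 after median centring and -0.044 to 0.0624, and Znrd1 -0.00712 to 0.196. The cause of these changes was not tested.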
